A study of Mus musculus with 5 samples.

Results

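Open chromatin at the Tox, Satb1, Bach2 and Themis loci was described in 5 ATAC-seq libraries of sorted mouse thymocytes, 1 library per group. ATAC-seq uses a transposase to cut and tag accessible DNA, and a peak is a stretch where such cuts pile up. The loci were taken as windows of the mm9 genome that contain the genes. They are chromosome 4 from 6560000 to 6980000 for Tox, chromosome 17 from 51800000 to 52100000 for Satb1, chromosome 4 from 32280000 to 32720000 for Bach2, and chromosome 10 from 28340000 to 28630000 for Themis. Every peak that overlapped a window was kept. Merging the peaks of the 5 lists gave 280 regions in the 4 windows, of 157434 regions in the genome. Satb1 held 131 of them, Bach2 70, Tox 55 and Themis 24.

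All animals were of the C57BL/6 strain. The SOX13hi and SOX13lo libraries came from γδ T thymocytes of the genotype TCRbeta KO.Sox13 ECFP KI/+, sorted as CD24+ cells with high CFP or with low to absent CFP. CFP is the reporter knocked into 1 copy of Sox13, so the names of the fractions refer to the reporter. The transgenic SOX13hi and SOX13lo libraries were sorted in the same way from TCRbeta KO.Sox13tg+.Sox13 ECFP KI/+ animals, which also carry a Sox13 transgene. The promoter that drives the transgene is not given in the sources used here. All 4 γδ libraries thus lack TCRbeta and carry the reporter, whereas the DP library came from wild-type double-positive thymocytes, so cell type and genotype cannot be told apart in a comparison with DP. The protocol gives 40000 sorted cells for the γδ fractions and is not explicit for DP.

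The 4 genes code for nuclear factors and a signalling protein of T cell development. SATB1 is a chromatin organiser that is abundant in double-positive thymocytes and binds many enhancers of T lineage genes. TOX is an HMG-box protein needed for CD4 T cell development. BACH2 is a bZIP repressor that restrains effector programmes in lymphocytes. THEMIS is an adaptor in T cell receptor signalling that is needed for positive selection at the double-positive stage. Double-positive thymocytes express both CD4 and CD8 and are about to be selected on their αβ receptor, whereas γδ thymocytes leave that pathway earlier.

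The lists differed in length, which sets what any peak count can show. They held 54435 (SOX13hi), 67482 (SOX13lo), 63932 (transgenic SOX13hi), 33155 (transgenic SOX13lo) and 113877 (DP) peaks. Counts per locus are therefore also given per 10000 peaks of the list, and ratios are scaled by the list totals. The read depth is unknown. The score of a peak is the authors' own value and is used here only as a percentile within its list. Intervals are exact 95% intervals that cover counting error only and treat peaks as independent, although neighbouring peaks are not. In ratios of DP to the pooled γδ lists the γδ counts are summed. A site present in several of these lists is counted in each, and those intervals may be too narrow. With 1 library per group there is no replicate check and no p-value. Inside the SOX13lo list the name field reads SOX13hi on every line, and the list was used under its label. A single index is recorded for both the transgenic SOX13hi and the DP library.

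Satb1 was the locus at which DP and the γδ libraries differed most. DP had 116 peaks in the Satb1 window (Poisson interval 95.9 to 139), SOX13lo had 32 (21.9 to 45.2), transgenic SOX13hi 19 (11.4 to 29.7), SOX13hi 17 (9.90 to 27.2) and transgenic SOX13lo 9 (4.12 to 17.1). Per 10000 peaks of the list this was 10.2 in DP (8.42 to 12.2), 4.74 in SOX13lo (3.24 to 6.69), 3.12 in SOX13hi, 2.97 in transgenic SOX13hi and 2.72 in transgenic SOX13lo. The DP interval lay above that of every γδ library, and the 4 γδ intervals overlapped one another. Scaled by list totals, the DP peak number was 2.90 times that of the 4 γδ lists pooled (2.15 to 3.92). Against single libraries the DP ratio was 2.15 for SOX13lo (1.44 to 3.29), 3.26 for SOX13hi (1.95 to 5.79), 3.43 for transgenic SOX13hi (2.10 to 5.90) and 3.75 for transgenic SOX13lo (1.91 to 8.41). Of 4733 genome windows of 300 kb with at least 10 peaks, 8.13% were at least 2-fold higher in DP, and the median ratio was 0.92. Of the 4733 windows, 135 (2.85%) had a ratio at or above that of Satb1. These windows were not matched to Satb1 in peak number, and a ratio from few peaks varies more. By peak count alone, without regard to the other lists, 14 of 6099 windows of this length held 116 or more DP peaks. In the same way 309 (5.07%) held 32 or more SOX13lo peaks.

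**Figure D1:**
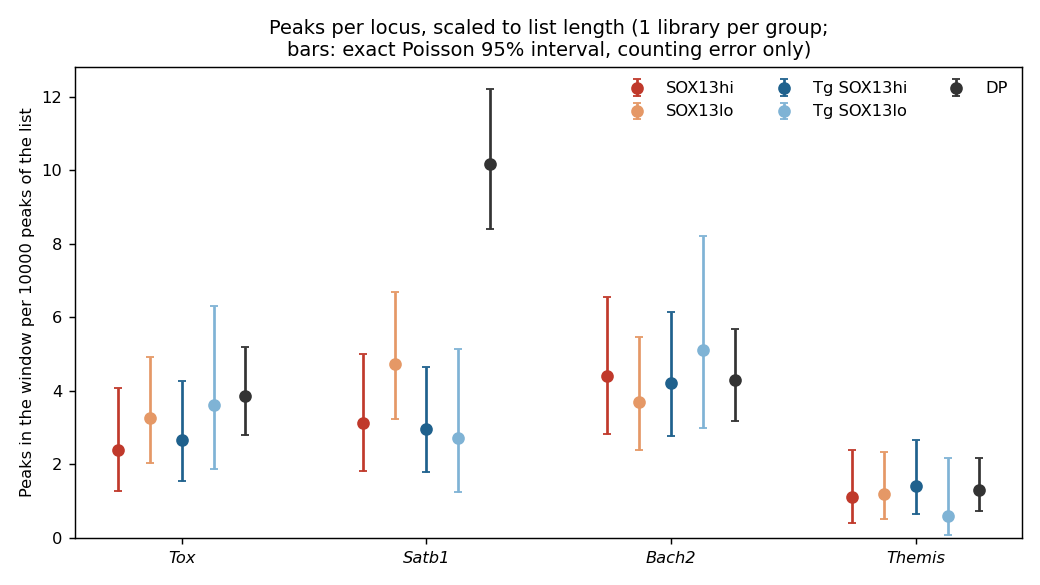
Peaks in each window per 10000 peaks of the list (vertical axis) for the 4 loci (horizontal axis), with 1 point per library and exact Poisson 95% intervals. At Satb1 the DP point, at 10.2, lies above all 4 γδ points, which lie between 2.72 and 4.74, whereas the 5 intervals overlap at Tox, Bach2 and Themis.

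The DP excess over the pooled γδ lists at Satb1 remained when the length of the lists was made equal. With the 33155 highest-scoring peaks of each list, DP had 21 peaks in the window (13.0 to 32.1). SOX13hi had 11 (5.49 to 19.7), SOX13lo 10 (4.8 to 18.4), transgenic SOX13lo 9 (4.12 to 17.1) and transgenic SOX13hi 4 (1.09 to 10.2). The DP interval then lay above that of transgenic SOX13hi alone and overlapped those of the other γδ lists. The ratio of DP to the γδ mean was then 2.47 (1.36 to 4.38). Among windows of 300 kb in equal-length lists, 8.49% were at least 2-fold higher in DP. The base pairs under peaks gave 11151 in DP, 3286 in SOX13lo, 1331 in SOX13hi, 1013 in transgenic SOX13hi and 752 in transgenic SOX13lo. Scaled by the base pairs of the lists, the DP ratio was 3.09.

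Most of the merged regions at Satb1 were present in DP alone. They numbered 95 of 131 (72.5%, Clopper-Pearson interval 64.0 to 80.0), against 40.3% of all merged regions of the genome. With equal-length lists the number was 14 of 30 (46.7%), against 14.5% of the genome. Regions present in all 5 libraries numbered 4 of 131 (3.05%, 0.838 to 7.63), against 9.45% of the genome. Regions shared by DP and some but not all γδ libraries numbered 15 (11.5%), against 20.3%. No Satb1 region was present in all 4 γδ libraries and absent from DP, a pattern of 0.694% of the genome's regions, and a count of 0 in 131 allows up to 2.78%. Counted over DP peaks, 7 of the 116 met a SOX13hi peak, 16 a SOX13lo peak, 11 a transgenic SOX13hi peak and 4 a transgenic SOX13lo peak. These are 6.03%, 13.8%, 9.48% and 3.45%, against 25.9%, 32.5%, 29.8% and 15.9% of the DP list. Of the 116 DP peaks, 59 (50.9%) were 30 bp wide or less, against 42.1% of the DP list. In the upper 25% of the list by score were 18 (15.5%). Most of the DP-only regions had low scores, with a median score of 7 where the lowest DP score is 5. The lowest score of the γδ lists is 7 or 8, and whether the lists share a scale is unknown. Of the 95, 6 lay in the upper 25% of DP scores (6.32%), against 5.4% of DP-only regions of the genome.

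**Figure D2:**
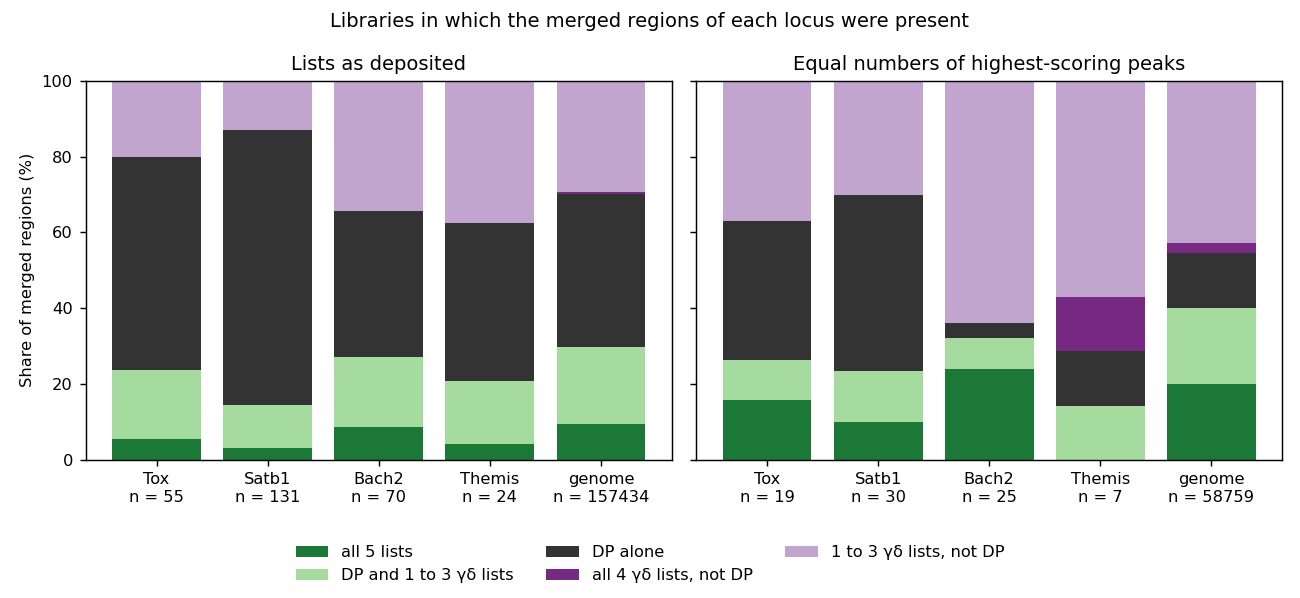
Share of the merged regions of each locus and of the genome (vertical axis, percent) by the libraries that held them, for the lists as deposited (left) and for equal numbers of highest-scoring peaks (right); n is the number of merged regions. The DP-only part is larger at Satb1 (72.5%) than in the genome (40.3%) and stays larger with equal-length lists (46.7% against 14.5%).

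The DP-only regions at Satb1 lay in runs, whose lengths were not compared with runs elsewhere in the genome. Whether the runs exceed what a DP-only share of 72.5% would give was not tested. The longest run was a stretch of 25 consecutive DP-only regions at 51902835 to 51950647 on chromosome 17, spread over 47.8 kb. Its median percentile in the DP list was 22.9, and its highest score was 21, at percentile 68.5. A second run of 21 regions lay at 51874429 to 51897510, with a highest score of 50 (percentile 83.8). The third was dense and held stronger peaks: 13 regions within 4.77 kb at 51966275 to 51971039, with 1699 bp under DP peaks, a median percentile of 64.7 and 3 peaks in the upper 25% of the list. This run contained the highest-scoring DP-only region of the locus, at 51970992 to 51971039, with a score of 99 (percentile 90.8), and the next, 453 bp wide at 51968674 to 51969126, with a score of 88 (percentile 89.8). The remaining DP-only region named by rank lay at 52022085 to 52022199, with a score of 53 (percentile 84.5).

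At Satb1, 19 regions were shared by DP and at least 1 γδ library, and 12 of them (63.2%) were in the upper 25% of DP scores, against 51.5% of such regions of the genome. The region at 51972232 to 51972586 reached percentile 98.7 in DP, 96.9 in SOX13lo, 86.3 in SOX13hi, 78.0 in transgenic SOX13lo and 61.4 in transgenic SOX13hi. It held the highest-scoring Satb1 peak of DP, SOX13lo and SOX13hi, and 5 regions held by γδ lists and not DP, at 51971180 to 51972149, lay between it and the dense DP-only run. The region at 52018395 to 52019021 reached percentile 94.0 in DP, 93.1 in SOX13lo, 84.8 in transgenic SOX13hi, 82.7 in SOX13hi and 74.8 in transgenic SOX13lo. The third, at 51952498 to 51954163, was 1 unbroken DP peak of 1666 bp, the widest peak at any of the 4 loci. In the γδ lists the same stretch was broken into 5 peaks covering 221 bp in SOX13hi, 6 covering 869 bp in SOX13lo, 6 covering 174 bp in transgenic SOX13hi and 3 covering 328 bp in transgenic SOX13lo. The broad DP domain counts as 1 peak, so DP had fewer peaks there than each γδ list but more covered base pairs. Why the γδ peaks were broken up was not tested. In the 20 kb bin from 51940001 to 51960000, which holds this domain, DP had 10 peaks against 6, 12, 9 and 3 in SOX13hi, SOX13lo, transgenic SOX13hi and transgenic SOX13lo. This was the bin with the lowest scaled DP difference. The next bin, from 51960001 to 51980000, had the highest, with 22 DP peaks against 4, 6, 2 and 3.

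Within the γδ libraries, differences in peak number at Satb1 did not exceed counting error. SOX13hi had 0.66 times the scaled number of SOX13lo peaks (0.343 to 1.22), and transgenic SOX13hi had 1.095 times that of transgenic SOX13lo (0.472 to 2.75). With equal-length lists both directions turned, to 1.1 (0.424 to 2.89) and 0.44 (0.100 to 1.59). By covered base pairs, for which no interval was computed, the same ratios were 0.55 without the transgene and 0.61 with it. The transgenic lists stood at 0.95 (0.468 to 1.95) for SOX13hi and 0.57 (0.240 to 1.23) for SOX13lo relative to the non-transgenic lists. With peaks of 50 bp or wider, transgenic SOX13hi stood at 0.39 relative to both transgenic SOX13lo and SOX13hi. The bin with the largest SOX13lo excess ran from 51940001 to 51960000 (12 peaks against 6), and the bin with the largest SOX13hi excess, from 51860001 to 51880000, held 3 SOX13hi and 2 SOX13lo peaks. Regions held by SOX13lo and DP and no other library numbered 6 (4.58%), near the 4.15% of the genome. In transgenic SOX13hi, 14 of the 19 Satb1 peaks were 30 bp wide or less (73.7%), against 46.6% of that list, and 17 of the 19 met a DP peak (89.5%, 66.9 to 98.7), against 61.2% of that list. The share that met DP was 64.7% in SOX13hi, 65.6% in SOX13lo and 77.8% in transgenic SOX13lo, against 63.1%, 60.9% and 66.6% of those lists. At the other loci 64.7% (Tox), 48.2% (Bach2) and 33.3% (Themis) of the transgenic SOX13hi peaks met DP. That library and DP carry the same index in the labels, and whether this has a part in the Satb1 overlap was not tested. The region at 51965954 to 51966070, in both SOX13hi libraries and neither SOX13lo library, was also in DP, with percentiles of 43.8 and 9.48 in SOX13hi and transgenic SOX13hi and 92.9 in DP. It was the only 1 of 131 with that pattern (0.763%), against 2.42% of the genome.

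Satb1 is transcribed from several start sites, and the RefSeq promoter table holds 5. Sequences around the first 3 are shown because Satb1 is the locus with the largest DP difference. The fourth held none of the motifs below, and the fifth overlaps the fourth and was not searched. Each spans 300 bases around a start, and all come from RefSeq on GRCm38.p6 (minus strand of the chromosome) and have no known place on the mm9 peaks here. Capitals mark matches to an E protein motif (CAGNTG) or an ETS motif (GGAAGT) on either strand. The 3 sequences, 5′ to 3′, in the order of the gene, are as follows.
Satb1 start 1, chr17:51833241-51833540: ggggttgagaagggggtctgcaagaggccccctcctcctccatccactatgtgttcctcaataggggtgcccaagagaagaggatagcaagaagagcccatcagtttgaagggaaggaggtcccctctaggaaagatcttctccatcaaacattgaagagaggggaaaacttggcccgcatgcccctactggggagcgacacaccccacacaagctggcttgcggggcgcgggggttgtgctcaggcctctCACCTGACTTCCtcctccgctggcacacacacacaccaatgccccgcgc
Satb1 start 2, chr17:51832598-51832897: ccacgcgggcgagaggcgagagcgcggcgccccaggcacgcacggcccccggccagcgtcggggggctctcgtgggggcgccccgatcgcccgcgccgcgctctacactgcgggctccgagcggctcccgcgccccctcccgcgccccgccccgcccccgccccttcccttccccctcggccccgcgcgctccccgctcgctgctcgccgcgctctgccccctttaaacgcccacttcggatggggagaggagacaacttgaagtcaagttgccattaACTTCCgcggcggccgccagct
Satb1 start 3, chr17:51826539-51826838: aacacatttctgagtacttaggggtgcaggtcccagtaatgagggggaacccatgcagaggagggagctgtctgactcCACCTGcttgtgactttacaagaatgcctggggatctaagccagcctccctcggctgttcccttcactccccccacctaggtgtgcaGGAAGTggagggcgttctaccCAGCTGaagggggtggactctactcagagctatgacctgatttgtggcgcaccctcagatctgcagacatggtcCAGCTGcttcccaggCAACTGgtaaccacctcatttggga

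Start 2 was the richest in CpG, with 45 sites and 76.7% G and C, against 8 sites and 59.0% at start 1 and 3 sites and 56.0% at start 3. The E protein motif occurred once at start 1, directly before an ETS match and with no shared base, and 4 times at start 3. It occurs in 51.4% of the 32851 RefSeq promoters of this length. The ETS motif occurred once at each of the 3 starts and occurs in 23.8% of promoters. A TCF/LEF motif (CTTTGA, 16.0% of promoters), a SOX motif (AACAAT, 10.7%) and a RUNX motif (TGTGGT, 16.8%), searched on both strands, were not among the letters of these windows. A match describes the letters only. Of the 4 genes, Satb1, Bach2 and Themis have an entry in this table and Tox has 0.

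At Tox the libraries differed less. DP had 44 peaks in the window (32.0 to 59.1), SOX13lo 22 (13.8 to 33.3), transgenic SOX13hi 17 (9.90 to 27.2), SOX13hi 13 (6.92 to 22.2) and transgenic SOX13lo 12 (6.20 to 21.0). Per 10000 peaks these were 3.86, 3.26, 2.66, 2.39 and 3.62, and all 5 intervals overlapped. The DP ratio was 1.32 (0.880 to 1.97), below a fold of 2, which 6.33% of windows of 420 kb reached. With equal-length lists the numbers were 12 in DP and transgenic SOX13lo, 11 in transgenic SOX13hi, 10 in SOX13hi and 9 in SOX13lo, a ratio of 1.14 (0.548 to 2.21). By base pairs, DP covered 5652 bp and the γδ lists 894 to 2397 bp, a scaled ratio of 1.61.

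DP-only regions were 31 of 55 (56.4%, 42.3 to 69.7), above the 40.3% of the genome, and 7 of 19 (36.8%) with equal-length lists, against 14.5%. Their densest run held 7 regions within 1.97 kb on chromosome 4 at 6822917 to 6824882, with 783 bp under DP peaks and 3 regions in the upper 25% of the DP list. It contained the 3 highest-ranked DP-only regions of the locus. These lay at 6823164 to 6823461 (score 67, percentile 87.1), 6824841 to 6824882 (score 41, percentile 81.0) and 6823539 to 6823581 (score 40, percentile 80.6). The bin with the largest DP excess, from 6820001 to 6840000, held this run, with 14 DP peaks against 3, 6, 6 and 4 in SOX13hi, SOX13lo, transgenic SOX13hi and transgenic SOX13lo. That bin was also the one with the largest SOX13lo excess over SOX13hi.

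Regions common to all libraries at Tox numbered 3 of 55 (5.45%, 1.14 to 15.1), against 9.45% of the genome. The region at 6828519 to 6829627 was 1 DP peak of 802 bp at percentile 99.3, and in the γδ lists 2 to 4 peaks covering 205 to 523 bp at percentiles 86.6 to 90.3. The region at 6917575 to 6918698 held the highest-scoring DP peak of all 4 loci (score 858, percentile 99.9, 735 bp). It held 994 bp under 3 SOX13lo peaks (percentile 92.4), 557 bp under 4 transgenic SOX13lo peaks (87.3), 435 bp under 5 transgenic SOX13hi peaks (83.04) and 291 bp under 3 SOX13hi peaks (83.2). The third region, at 6609157 to 6609604, reached percentile 89.6 in DP, 85.9 in SOX13lo and 69.2 to 73.5 in the other γδ lists. A region about which nothing was fixed by rule, 6602175 to 6602480, was picked once its values were known. It was the highest-ranked Tox site of SOX13hi (percentile 92.6) and transgenic SOX13hi (90.4). It stood at 78.1 in SOX13lo and 75.4 in DP and was not in the transgenic SOX13lo list.

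Between the γδ libraries no difference in peak number exceeded counting error at Tox. SOX13hi over SOX13lo was 0.73 (0.339 to 1.52) without the transgene and 0.73 (0.331 to 1.69) with it. The first of these turned to 1.11 with equal-length lists (0.406 to 3.09), 1.12 with the upper 50% by score and 1.29 with peaks of 50 bp or wider, and the second stayed between 0.64 and 0.95. Transgenic over non-transgenic was 1.11 in both fractions (0.509 to 2.49 for SOX13hi, 0.501 to 2.34 for SOX13lo). Of the SOX13hi peaks, 11 of 13 met a SOX13lo peak (84.6%, 54.6 to 98.1), against 62.7% of that list. None of the 55 regions was in both libraries of one sort and neither of the other, patterns held by 2.42% (both SOX13hi) and 0.574% (both SOX13lo) of the genome's regions, and 0 of 55 allows up to 6.49%. No region was in both transgenic libraries and no other γδ library, against 0.696%. Regions of SOX13lo and DP alone numbered 3 (5.45%), and 9 were in 1 γδ library alone (16.4%), against 4.15% and 23.5% of the genome. The bin from 6600001 to 6620000, with the largest SOX13hi excess, held 4 peaks in each of SOX13hi and SOX13lo. The bin with the largest γδ excess over DP, from 6900001 to 6920000, held 8 DP peaks against 5, 7, 8 and 5, and it contains the region at 6917575, where DP formed 1 wide peak.

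**Figure D3:**
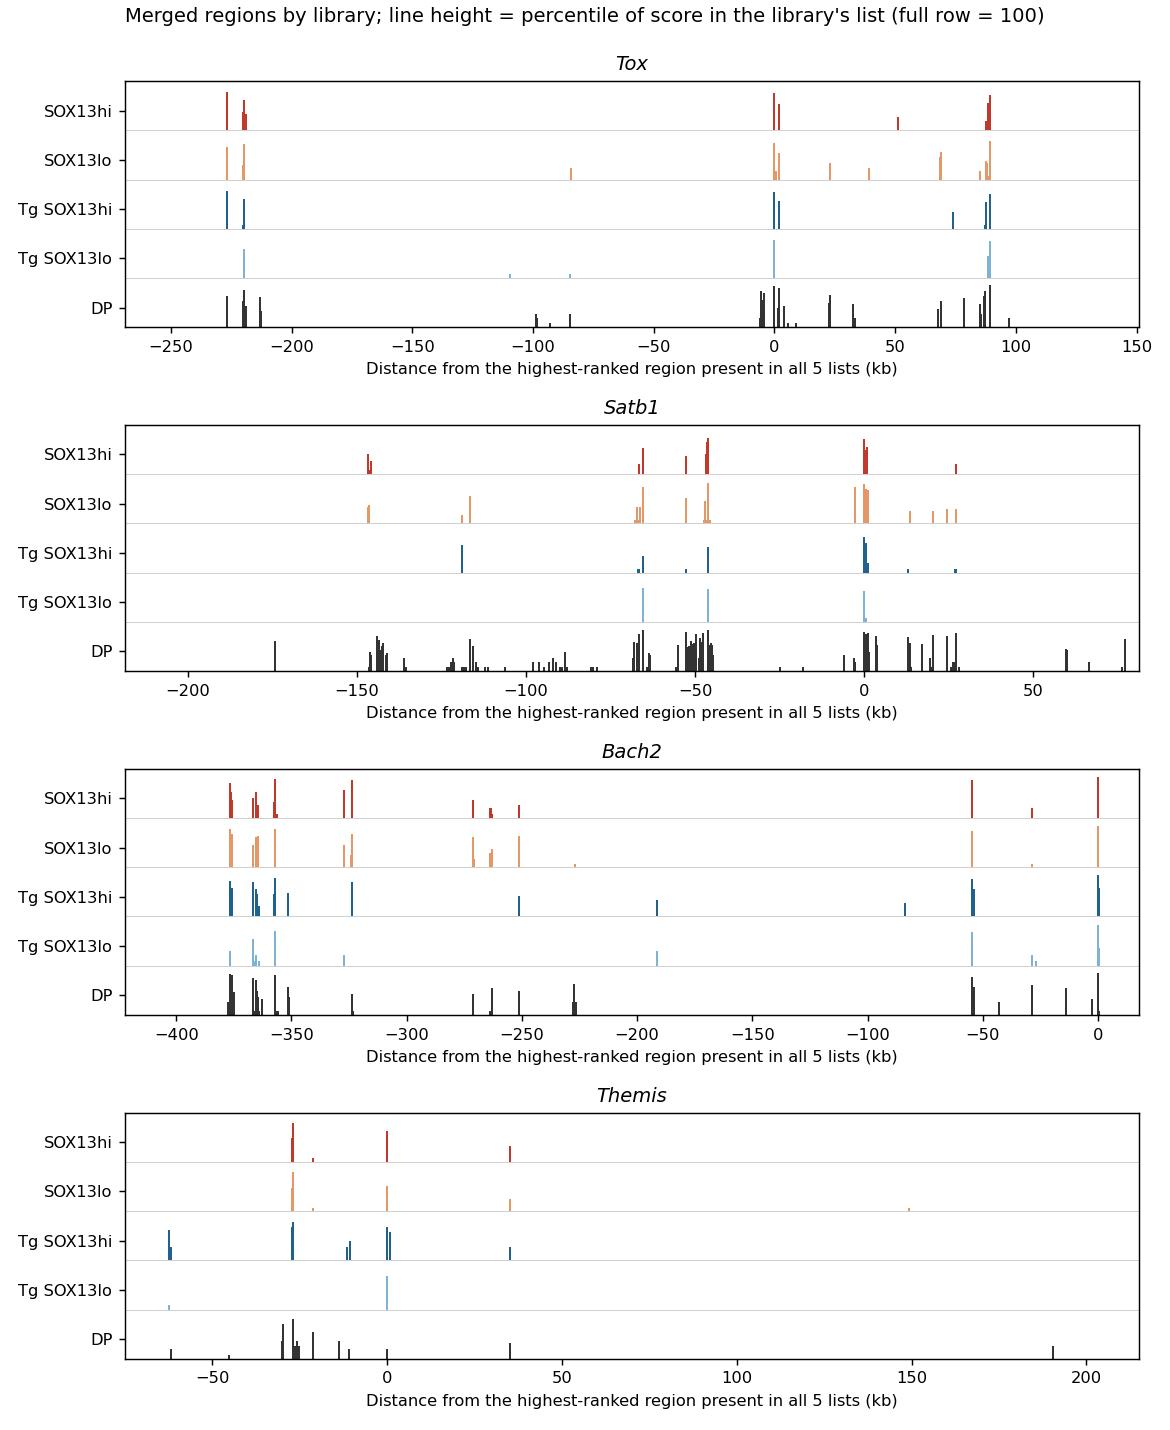
Merged regions along each window (horizontal axis: distance in kb from the centre of the region with the highest mean percentile among those in all 5 lists), with 1 row per library and lines whose height is the percentile of the score in that library's list. DP has dense runs at Satb1, including the 13 regions within 4.77 kb, and a run of 7 regions next to the origin at Tox, where the γδ rows are empty.

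At Bach2 the scaled peak numbers of DP and the γδ libraries lay close together. DP had 49 peaks (36.3 to 64.8), transgenic SOX13hi 27 (17.8 to 39.3), SOX13lo 25 (16.2 to 36.9), SOX13hi 24 (15.4 to 35.7) and transgenic SOX13lo 17 (9.90 to 27.2). Per 10000 peaks, transgenic SOX13lo was highest with 5.13, followed by SOX13hi (4.41), DP (4.30), transgenic SOX13hi (4.22) and SOX13lo (3.71), and no neighbours in that order differed beyond their intervals. The DP ratio was 1.01 (0.702 to 1.45), and 6.42% of windows of 440 kb were at least 2-fold higher in DP and 15.7% at least 2-fold lower. With equal-length lists DP had the fewest peaks, 9 (4.12 to 17.1) against 14 to 18 in the γδ libraries, a ratio of 0.55 (0.243 to 1.12). In such lists 17.6% of windows were at least 2-fold lower in DP. Neither interval excluded equal numbers.

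DP-only regions were 27 of 70 (38.6%, 27.2 to 51.0), near the 40.3% of the genome, and 1 of 25 (4%) with equal-length lists, against 14.5%. None of the 27 reached the upper 25% of DP scores, against 5.4% of DP-only regions of the genome, and the highest was the region at 32474871 to 32475118 (score 26, percentile 73.3). The next by rank were at 32688294 to 32688326 (percentile 63.2) and 32337102 to 32337259 (57.8). The bin with the largest DP excess, from 32460001 to 32480000, held 4 DP peaks and 1 SOX13lo peak. The opposite bin, from 32420001 to 32440000, held 5 peaks in each of SOX13hi and SOX13lo, 0 in each transgenic library and 3 in DP. Regions in all 5 libraries were 6 of 70 (8.57%, 3.21 to 17.7), near the 9.45% of the genome, and 6 of 25 (24%) with equal-length lists, against 20.1%.

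The highest-ranked region shared by all libraries at the 4 loci was at Bach2. It ran from 32702161 to 32702351 on chromosome 4 and lay at percentile 99.1 in DP, 98.3 in SOX13hi, 98.1 in SOX13lo, 98.0 in transgenic SOX13hi and 98.1 in transgenic SOX13lo. It is near the end of the window. In RefSeq order, Gja10 and Casp8ap2 follow Bach2 on the chromosome, and whether the end of the window holds them was not settled here. Leaving out 10% of the window at each end, which removes this region, gave a DP ratio of 0.98. The region at 32344935 to 32345469 lay at percentile 95.8 in DP, 92.5 in SOX13hi, 92.1 in transgenic SOX13hi, 91.0 in SOX13lo and 82.2 in transgenic SOX13lo. The region at 32647294 to 32647534 lay at 91.8, 90.6, 89.9, 85.7 and 81.4 in the same order of libraries. Another region, 32325506 to 32325782, was picked with its values in view and lay at percentile 97.0 in DP and 91.3 in SOX13lo. It stood at 84.0 in SOX13hi, 83.9 in transgenic SOX13hi and 25.7 in transgenic SOX13lo. So was the region at 32378333 to 32378837, which ranked lower in DP (percentile 50.1) than in SOX13hi (89.9), transgenic SOX13hi (81.6) and SOX13lo (79.5), and it was not in the transgenic SOX13lo list.

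Between the γδ libraries, scaled numbers of Bach2 peaks did not differ beyond counting error. SOX13hi over SOX13lo was 1.19 (0.651 to 2.17) without the transgene and 0.82 (0.433 to 1.61) with it, and with equal-length lists 0.875 and 1.06. Transgenic over non-transgenic was 0.96 (0.532 to 1.73) in SOX13hi and 1.38 (0.701 to 2.67) in SOX13lo. The bin from 32340001 to 32360000, with the largest SOX13hi excess, held 3 SOX13hi peaks and 1 SOX13lo peak, and the transgenic libraries had 4 and 3 there. The region at 32344763 to 32344873 was in both SOX13hi libraries and no other (percentiles 38.2 and 53.7), the single region of 70 in both SOX13hi and neither SOX13lo library (1.43%, against 2.42% of the genome). The regions at 32702536 to 32702684 (percentiles 66.9 in transgenic SOX13hi and 42.2 in transgenic SOX13lo) and 32510837 to 32510917 (39.6 and 34.9) were in the transgenic libraries alone, 2 of 70 (2.86%, 0.348 to 9.94), against 0.696% of the genome. The first of these lies near the end of the window, in the part that trimming removes, and whether it belongs to Bach2 was not settled. Of the transgenic SOX13lo peaks, 6 of 17 met a SOX13lo peak (35.3%, 14.2 to 61.7), against 67.8% of that list, and 11 of 17 met a transgenic SOX13hi peak (64.7%), against 67.3%. Peaks of the non-transgenic SOX13hi list were also met by 11 of 17 (64.7%), against 62.6%. DP peaks were met by 7 of 17 (41.2%, 18.4 to 67.1), against 66.6%.

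Themis had the fewest peaks. DP had 15 (8.40 to 24.7), transgenic SOX13hi 9 (4.12 to 17.1), SOX13lo 8 (3.45 to 15.8), SOX13hi 6 (2.20 to 13.1) and transgenic SOX13lo 2 (0.242 to 7.22). Per 10000 peaks the values were 1.32, 1.41, 1.19, 1.102 and 0.60, and all intervals overlapped. These counts are near the median of 290 kb windows, which was 12 in DP, 8 in SOX13lo and transgenic SOX13hi, 6 in SOX13hi and 3 in transgenic SOX13lo. The DP ratio was 1.15 (0.566 to 2.28), and 8.3% of windows were at least 2-fold higher in DP. In equal-length lists DP had 2 peaks and the γδ libraries 2 to 5, a ratio of 0.62 (0.067 to 2.72). DP-only regions were 10 of 24 (41.7%, 22.1 to 63.4), near the 40.3% of the genome.

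Themis is described by a pair of sites, the first of them picked with its values in view. The region of chromosome 10 from 28388003 to 28388379 held the highest-scoring Themis peak of 4 libraries. It lay at percentile 94.9 in DP, 94.5 in SOX13lo, 93.4 in SOX13hi and 92.4 in transgenic SOX13hi, and it was not in the transgenic SOX13lo list, which had no peak in that 20 kb bin. The bin, from 28380001 to 28400000, held 8 DP peaks against 3, 4, 2 and 0 and was the one with the largest DP excess. The region at 28414872 to 28415115 was the only 1 of 24 present in all 5 lists (4.17%, 0.105 to 21.1), against 9.45% of the genome. It lay at percentile 80.5 in transgenic SOX13hi, 79.8 in transgenic SOX13lo, 73.5 in SOX13hi and 59.6 in SOX13lo, but at 22.9 in DP, where it was a 29 bp peak with a score of 6. With equal-length lists it fell out of DP and became the single region of 7 held by all 4 γδ libraries and not DP. This share (14.3%, 0.361 to 57.9) has an interval that contains the 2.48% of the genome. Its bin, from 28400001 to 28420000, had the lowest scaled DP difference and the largest SOX13hi excess, with 2, 2, 4 and 1 γδ peaks and 3 in DP. The lowest SOX13hi bin, from 28560001 to 28580000, held 1 SOX13lo peak alone.

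The DP-only regions named by rank at Themis were weak apart from the first. They lay at 28385127 to 28385154 (score 45, percentile 82.4), 28384851 to 28384879 (score 9, percentile 43.0) and 28389061 to 28389158 (score 9, percentile 43.0). SOX13hi over SOX13lo was 0.93 (0.266 to 3.06) without the transgene and 2.33 (0.483 to 22.2) with it, the latter from 9 against 2 peaks. Windows of 290 kb reached a fold of 2 upward in 9.77% for the transgenic pair. Transgenic over non-transgenic was 1.28 (0.406 to 4.36) in SOX13hi and 0.51 (0.053 to 2.55) in SOX13lo. All 4 intervals contained 1, and with so few peaks they are wide.

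**Figure D4:**
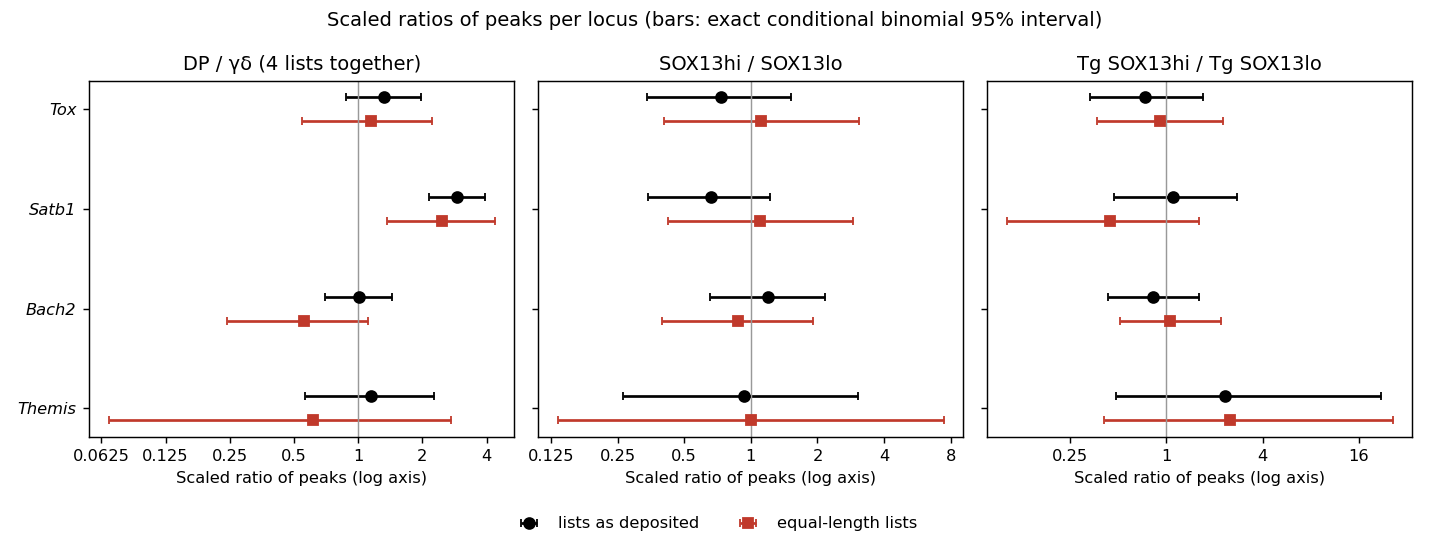
Scaled ratios of peaks per locus (horizontal log axis) for DP over the 4 γδ libraries, SOX13hi over SOX13lo and the same for the transgenic pair, with lists as deposited (black) and of equal length (red) and exact conditional binomial 95% intervals. Only DP over γδ at Satb1, at 2.90 and 2.47, has intervals that lie above 1 in both settings.

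Set side by side, the DP ratio fell from 2.90 at Satb1 to 1.32 at Tox, 1.15 at Themis and 1.01 at Bach2. With lists as deposited, the Satb1 interval (2.15 to 3.92) lay above those of Tox (0.880 to 1.97) and Bach2 (0.702 to 1.45). It overlapped that of Themis (0.566 to 2.28). With equal-length lists the Satb1 interval (1.36 to 4.38) overlapped that of Tox (0.548 to 2.21) and stayed above that of Bach2 (0.24 to 1.12). The Satb1 and Tox intervals also overlapped when only the upper part by score or only the wider peaks were kept. With trimmed windows and with joined peaks they did not overlap. In the lists as deposited, from which the ratios of 2.90 to 1.01 also come, the shares of DP-only regions followed a like order. They were 72.5% at Satb1, 56.4% at Tox, 41.7% at Themis and 38.6% at Bach2. Over the 4 loci, DP-only regions were 163 of 280 (58.2%, against 40.3% of the genome), and Satb1 supplied 95 of them. Regions in all 5 libraries were 14 (5%, against 9.45%). Regions in all 4 γδ libraries without DP were 0, which allows up to 1.31%, against 0.694%. Regions held by some γδ libraries and not DP were 61 (21.8%), against 29.3% of the genome. Regions of both non-transgenic γδ libraries and neither transgenic one were 5 (1.79%), against 2.42%.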

How the data were processed

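For each library the authors deposited a headerless table of peaks with coordinates, a name, an integer score and an uninformative strand. The build is mm9, per the submitters' processing notes. For aligner, peak caller, threshold and filters nothing is given in the sources used here, and the read depth is unknown. No source says what quantity the deposited score is, so it served only for ranks and cut-offs inside one list. Peaks of all lists overlapping by at least 1 bp were merged into regions, and a library held a region if any of its peaks fell there. Starts are 1-based. Peak numbers were scaled by list totals, with exact conditional binomial intervals for ratios, Clopper-Pearson intervals for shares and exact Poisson intervals for counts. The background for shares was all merged regions. For ratios it was windows of each locus's length with at least 10 peaks in the libraries compared. For peak counts of single lists it was all such windows with a peak in any list.

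Named by rule were, per locus, the 3 highest-ranked regions by mean percentile in all 5 lists, in DP alone and in all 4 γδ lists without DP, the 2 highest in both libraries of one sort only or in both transgenic libraries only, and the 20 kb bins of largest scaled difference, upward and downward. Runs were examined with values in view. The members, lists and rules were chosen with earlier results of these data known. Peaks were not assigned to gene features, and cell type markers were not checked, since the gene table at hand is of GRCm38 and served only for gene order. There were 6 alternatives, and the functions were tested on simulated data. Software was Python 3.11.15, scipy 1.17.1, numpy 2.4.6, matplotlib 3.10.9 and pandas 2.3.3.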

Additional observations from a re-analysis of the deposited data

Results flagged for a closer look

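In 5 comparisons the ratios of 2 groups lay on opposite sides of 1, with 1 library on each side, and in none was the difference tested. SOX13hi over SOX13lo at Satb1 was 0.66 without the transgene and 1.095 with it. At Bach2 it was 1.19 without and 0.82 with it, and at Themis 0.93 and 2.33. Transgenic over non-transgenic at Bach2 was 0.96 in SOX13hi and 1.38 in SOX13lo, and at Themis 1.28 and 0.51. The interval of each of these ratios contained 1. With equal-length lists SOX13hi over SOX13lo turned round at Satb1, to 1.1 without the transgene and 0.44 with it, and at Bach2, to 0.875 and 1.06. At Themis it was 1 and 2.5. Transgenic over non-transgenic was then above 1 in both fractions at Bach2 (1.29 and 1.06), and 1.67 and 0.667 at Themis.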

How the results depend on the processing

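The 32 ratios and shares were recomputed with equal numbers of highest-scoring peaks, the upper 50% of each list by score, peaks of 50 bp or wider, windows trimmed by 10% at each end, peaks within 150 bp joined, and, for the 20 ratios, covered base pairs. DP over γδ at Satb1 stayed between 2.47 and 3.23 in these settings, and its interval stayed above 1 wherever one was computed. DP over γδ at Bach2 was below 1 in all 6 settings. SOX13hi over SOX13lo changed side of 1 with equal-length lists at Tox (1.11), Satb1 (1.1) and Bach2 (0.875), with the upper 50% at Tox (1.12) and Bach2 (0.775), and with wider peaks at Tox (1.29), each interval containing 1. At Themis it did so with the upper 50% (1.24) and with covered base pairs (2.25). With trimmed windows and with covered base pairs, all results stayed within the intervals obtained from the lists as deposited and whole windows. With equal-length lists, values outside those intervals at Satb1 were 0.44 for transgenic SOX13hi over transgenic SOX13lo and 0.36 for transgenic SOX13hi over SOX13hi. At Bach2 DP over γδ, at 0.55, also lay outside. The equal-length intervals of these ratios, 0.100 to 1.59, 0.084 to 1.23 and 0.243 to 1.12, contained 1. The shares in all 5 libraries were then 15.8% at Tox, 10% at Satb1, 24% at Bach2 and 0% at Themis. The DP-only shares were 36.8%, 46.7%, 4% and 14.3%, and the share in all 4 γδ lists without DP at Themis was 14.3%. With the upper 50% by score, DP over γδ was 0.68 at Bach2 and 0.48 at Themis. At Bach2 transgenic SOX13hi over transgenic SOX13lo was 1.76, transgenic SOX13lo over SOX13lo 0.64 and the DP-only share 26.9%, and at Themis the shares in all 5 and in all 4 γδ lists alone were 0% and 14.3%. With peaks of 50 bp or wider, transgenic SOX13hi over transgenic SOX13lo at Satb1 was 0.39, transgenic SOX13hi over SOX13hi 0.39, and the shares in all 5 libraries 0% at Satb1 and Themis and 2.86% at Bach2. Joining peaks gave 19.4% in all 5 libraries at Bach2. The first 2 and the width settings hold fewer peaks by construction, and other causes were not tested. No paired analysis was possible because each group holds 1 library. The unknown read depth limits every count.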
